A study of Mus musculus with 20 samples.

Results

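Neurofilaments and the neuronal cytoskeleton were followed through 10 genes picked by name, all of which are rows of the deposited gene count table: Nefl, Nefm, Nefh, Ina, Prph, Mapt, Map2, Tubb3, Stmn2 and Uchl1. The table has 54532 rows, of which 18336 passed the filter on low counts, and all 10 genes were among those 18336. Polyadenylated RNA from 1 hemisphere of the mouse brain was sequenced in 20 libraries of 4 genotypes, with 5 libraries each. DKO mice lack both Glb1, the gene of lysosomal β-galactosidase, and Neu3, the gene of a plasma membrane sialidase; Glb1KO mice lack Glb1 alone, Neu3KO mice lack Neu3 alone, and WT mice carry neither knockout. Loss of Glb1 causes GM1 gangliosidosis, a lysosomal storage disease of the nervous system, and the series asks what Neu3 does in that setting. The labels name the Jackson Laboratory as the source of the mice, and no age, sex or strain is given in the sources used here. The label of each library also holds an animal identifier whose first letter is E for all 5 WT mice, E for 2 and W for 3 DKO mice, E for 2 and L for 3 Glb1KO mice, and E for 1 and W for 4 Neu3KO mice; what the letters stand for is not given.

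Neurofilaments are the intermediate filaments of mature axons. The light chain Nefl, the medium chain Nefm and the heavy chain Nefh assemble together with α-internexin (Ina) in the central nervous system or with peripherin (Prph) in peripheral and motor neurons, and their amount is known to set axon calibre, most of all in large myelinated projection axons. Microtubules are the other main element: Tubb3 is the neuronal β-tubulin, Mapt (tau) and Map2 are the main microtubule-associated proteins of axons and dendrites, Stmn2 binds tubulin in growing axons, and Uchl1 is an abundant neuronal deubiquitinase also called PGP9.5. Neurofilament light protein in blood and cerebrospinal fluid is widely used as a marker of axon damage, but here only the RNA in the tissue was measured.

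All levels are given as CPM, the count scaled to library size by TMM, and a gene was called when its adjusted p was under 0.05 in edgeR's quasi-likelihood test across 18336 genes. Library totals were 15162311 to 25145806 counts. Glb1 stood at 2.39 to 5.31 CPM in DKO, 2.30 to 4.56 CPM in Glb1KO, 19.0 to 21.8 CPM in Neu3KO and 18.2 to 21.8 CPM in WT libraries, so every library matched its Glb1 label. Neu3 was low throughout, at 2.07 to 4.31 CPM in DKO, 2.45 to 3.30 CPM in Neu3KO, 3.18 to 4.88 CPM in Glb1KO and 2.32 to 5.53 CPM in WT libraries, and these ranges overlap, so the level of Neu3 does not separate the libraries by their Neu3 label. Separate animals are named for all 20 libraries.

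The 10 genes lie at 9 places in the genome, since Nefl and Nefm are neighbours on chromosome 14 (GRCm38). In the GENCODE M21 annotation Nefl runs from 68083863 to 68089095 on the plus strand, and Nefm from 68082590 to 68124846 on the minus strand. The longer Nefm transcript, Nefm-202, has an exon that covers chr14:68083863-68084970, so 1108 exonic bases belong to both genes on opposite strands. That is 32.8% of the exonic bases of Nefl and 19.2% of those of Nefm, and 1008 of the 1108 bases are coding in Nefl. Ina shares 456 bases (14.1%) with Nt5c2, Uchl1 shares 295 bases (18.1%) with the antisense transcript Uchl1os, and Map2 shares 124 bases (0.754%) with Gm10558. Whether the counting used strand is not given in the sources used here, so reads of such stretches cannot be told apart. Nt5c2 averaged 74.8 CPM in DKO and 66.1 CPM in WT libraries, with a log2 fold change of 0.18, and Uchl1os and Gm10558 stayed under 1 CPM. Nefh, Prph, Mapt, Tubb3 and Stmn2 share no exonic base with another gene in that annotation.

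The RefSeq promoter table (GRCm38.p6) held a window for 5 of the 10 genes, namely Ina, Prph, Map2, Tubb3 and Uchl1. The 150 bases before the start are shown for Ina, which fell in DKO brains, for Prph, its low peripheral relative, and for Uchl1, which had the opposite sign. Capitals mark matches to a TATA box (TATAAA) or a GC box (GGGCGG), each searched on both strands, as TTTATA and CCGCCC on the other strand; the motifs do not overlap each other.
Ina, chr19:47014531-47014680, plus strand: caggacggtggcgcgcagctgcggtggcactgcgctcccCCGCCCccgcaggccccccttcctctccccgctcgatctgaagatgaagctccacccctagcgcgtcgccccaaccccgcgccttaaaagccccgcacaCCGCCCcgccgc
Prph, chr15:99055024-99055173, plus strand: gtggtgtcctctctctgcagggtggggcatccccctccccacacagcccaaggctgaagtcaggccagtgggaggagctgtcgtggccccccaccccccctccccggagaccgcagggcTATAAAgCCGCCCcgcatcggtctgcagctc
Uchl1, chr5:66675971-66676120, plus strand: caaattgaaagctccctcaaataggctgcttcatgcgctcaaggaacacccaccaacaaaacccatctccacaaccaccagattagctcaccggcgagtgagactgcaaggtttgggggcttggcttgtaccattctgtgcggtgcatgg
Ina held 2 GC boxes and no TATA box, Prph held 1 of each, and Uchl1 held neither. In the same window Map2 held 3 GC boxes and Tubb3 held 2. Of 32851 promoter windows of this length, 28.6% held a GC box and 7.57% a TATA box. The GC content of the window was 74.0% for Ina, 69.3% for Prph, 82.7% for Map2, 68.0% for Tubb3 and 52.7% for Uchl1.

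Levels of different genes were compared only per length, in the FPKM values deposited by the authors. In WT brains Uchl1 was highest at 230.3 ± 15.9 FPKM, followed by Tubb3 at 166.8 ± 16.0 FPKM (SD, n = 5 each). Nefl averaged 94.5 ± 8.53 FPKM, Ina 78.3 ± 4.42 FPKM, Map2 78.1 ± 1.44 FPKM and Mapt 71.6 ± 3.03 FPKM, and the ranges of each neighbouring pair in that order overlapped. Nefm averaged 63.2 ± 2.88 FPKM, Stmn2 53.0 ± 4.22 FPKM and Nefh 50.8 ± 5.23 FPKM, and the ranges of Stmn2 and Nefh overlapped. Prph was far below all of them at 1.95 ± 0.246 FPKM. The length used for Nefm is 5782 bases and includes the stretch shared with Nefl, which lowers its FPKM against that of its shorter transcript of 3334 bases. In DKO brains Nefl stood at 69.1 ± 7.36 FPKM and Map2 at 67.9 ± 1.76 FPKM with overlapping ranges, and Ina fell behind Mapt, at 52.8 ± 6.03 against 54.9 ± 4.19 FPKM, also with overlapping ranges. Uchl1, Tubb3 and Nefl kept the first 3 places and Nefh and Prph the last 2 places in all 4 genotypes.

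DKO brains had less neurofilament RNA than WT brains. Of the 10 genes, 6 were called lower and none higher, where 29.0% of all genes tested were called in either direction and 15.1% were called lower. The 6 were Nefl, Nefm, Nefh, Ina, Mapt and Map2; Prph, Tubb3, Stmn2 and Uchl1 were not called. The median log2 fold change of the 10 genes was -0.42, against -0.0032 over all genes tested. In 5 of the 6 called genes, all but Nefl, no DKO library reached the lowest WT library, a separation that 9.35% of all genes tested showed in that direction. None of the 10 was called higher or separated in the higher direction, where 14.0% and 9.28% of all genes tested were. Among the libraries with identifier E alone, 2 DKO and 5 WT, Nefl (-0.32), Nefm (-0.60), Nefh (-0.73), Ina (-0.41) and Mapt (-0.27) were called lower and Map2 was not (-0.16, edgeR adjusted p = 0.069). In that fit 1117 of 20091 genes tested were called lower and 1466 higher. The authors' deposited table of DKO against WT also calls these 6 of the 10 genes, among 5041 called of 32424 rows.

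**Figure D1:**
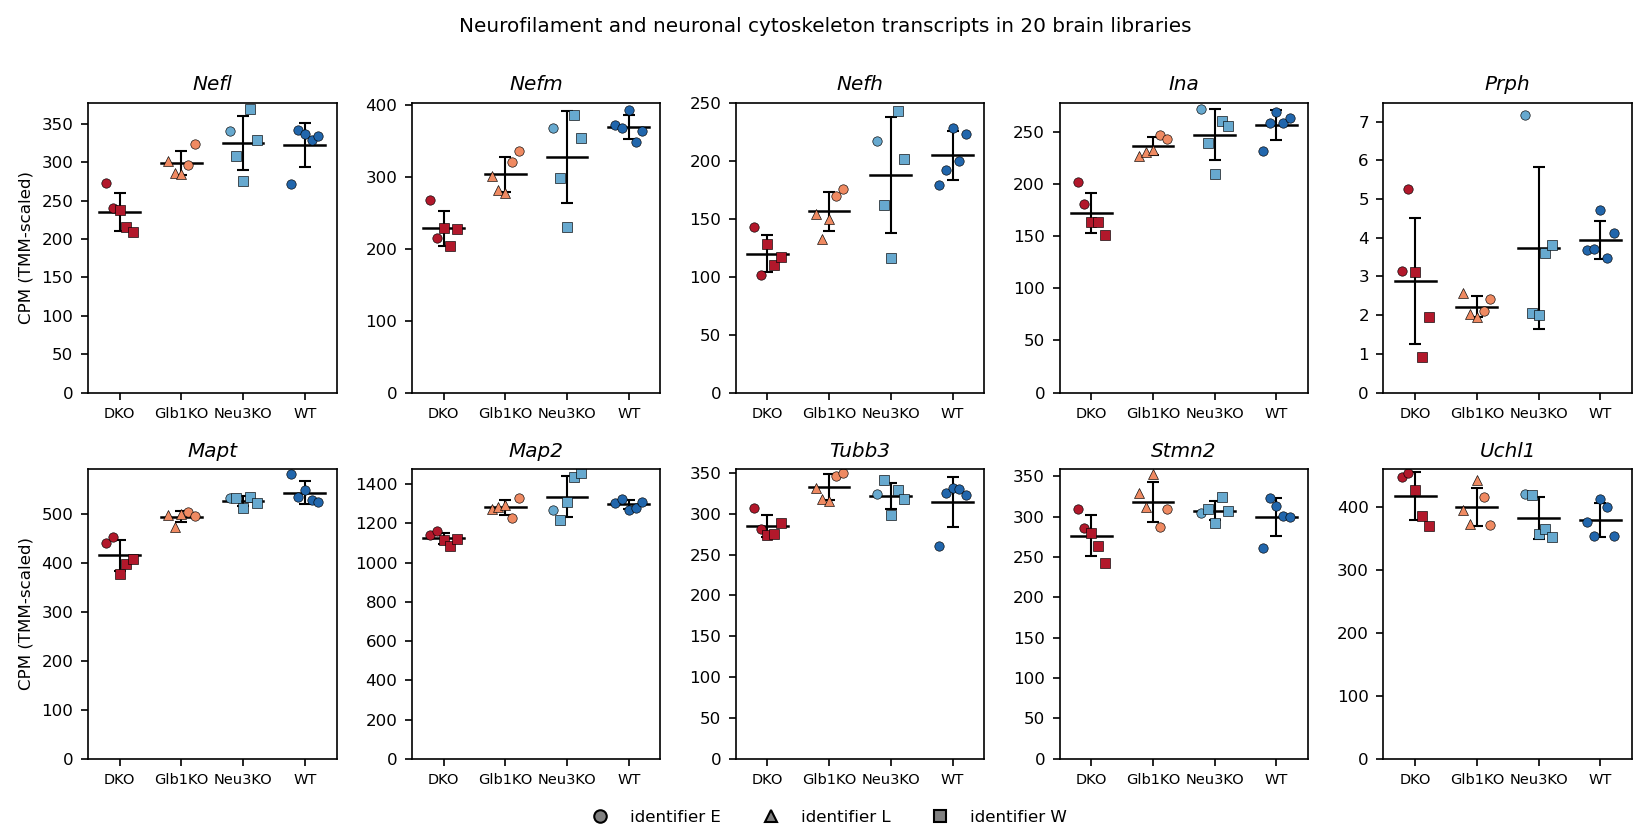
Each panel plots the CPM (TMM-scaled) of 1 gene in the 20 libraries, by genotype, with the mean and SD as a black line and bar and the marker shape giving the first letter of the animal identifier (circle E, triangle L, square W). Nefl, Nefm, Nefh, Ina and Mapt have their lowest group means in DKO, while Uchl1 has its highest there, and WT replicate 1 lies under the other WT libraries in Nefl, Nefh, Ina, Tubb3 and Stmn2.

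Nefl, the light chain, measured 272.6, 239.9, 237.6, 215.8 and 209.0 CPM in DKO libraries and 271.5, 341.4, 336.8, 328.8 and 334.4 CPM in WT libraries. The ranges overlap only through DKO replicate 1 and WT replicate 1; the other DKO libraries lie under every WT library. Nefl RNA fell by 27.2% in DKO, a log2 fold change of -0.46 ± 0.074 (SE) with an edgeR adjusted p of 2.31e-05. Glb1KO libraries held 302.2, 286.5, 284.6, 296.9 and 324.2 CPM, and Neu3KO libraries 340.5, 308.3, 275.8, 369.4 and 328.8 CPM. Both sets overlap the WT libraries, the Glb1KO set only through WT replicate 1.

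Nefm, the medium chain, measured 267.8, 215.2, 228.1, 203.3 and 227.4 CPM in DKO libraries, against 372.1, 367.3, 393.0, 347.7 and 363.6 CPM in WT libraries. The groups are far apart, and WT replicate 1, low in Nefl, is among the higher WT libraries here. Nefm RNA fell by 38.1% in DKO, a log2 fold change of -0.69 ± 0.11 (SE) with an edgeR adjusted p of 8.13e-05. Glb1KO libraries lay between, at 300.6, 281.5, 277.3, 320.8 and 334.9 CPM, all under the lowest WT library and all above the highest DKO library. Neu3KO libraries spread more widely, at 367.8, 297.9, 229.6, 385.9 and 354.0 CPM, from the DKO range to the WT range.

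Nefh (chr11:4938754-4948064, minus strand), the heavy chain, whose long phosphorylated tail projects from the filament, had the largest log2 fold change of the 10 genes in DKO against WT. It measured 143.4, 101.2, 128.0, 110.5 and 117.4 CPM in DKO libraries and 179.1, 192.7, 228.8, 200.5 and 223.8 CPM in WT libraries, without overlap. Nefh RNA fell by 41.4% in DKO, a log2 fold change of -0.77 ± 0.16 (SE) with an edgeR adjusted p of 0.00132. Glb1KO libraries held 154.3, 132.6, 149.9, 170.2 and 175.8 CPM, all under WT and partly within the DKO range. Neu3KO libraries ran from 116.0 CPM in replicate 3 to 243.4 CPM in replicate 4, the widest spread of any genotype for this gene, with a coefficient of variation of 26.5% against 10.2% in WT.

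Ina (chr19:47014698-47025327, plus strand), the central nervous system partner of the 3 chains, measured 201.5, 180.9, 163.8, 163.3 and 151.0 CPM in DKO libraries and 231.6, 258.2, 268.5, 258.8 and 263.6 CPM in WT libraries. No DKO library reached the lowest WT library. Ina RNA fell by 32.8% in DKO, a log2 fold change of -0.57 ± 0.066 (SE) with an edgeR adjusted p of 2.84e-08. Glb1KO libraries ran from 226.6 to 247.1 CPM and Neu3KO libraries from 209.3 to 271.7 CPM, both overlapping WT, the Glb1KO libraries only through WT replicate 1.

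Prph (chr15:99055174-99058978, plus strand), the peripheral and motor neuron filament, was near the floor of the measurement. It stood at 3.13, 5.27, 3.12, 0.920 and 1.96 CPM in DKO, 2.57, 2.04, 1.95, 2.12 and 2.43 CPM in Glb1KO, 7.18, 2.07, 2.01, 3.59 and 3.82 CPM in Neu3KO and 3.69, 3.70, 4.71, 3.47 and 4.14 CPM in WT libraries. Every DKO library but replicate 2 lay under every WT library, and DKO replicate 2 lay above them all. Without DKO replicate 2 the DKO against WT log2 fold change was -0.78 (edgeR adjusted p = 0.0682). With all libraries the log2 fold change of -0.45 ± 0.34 (SE) had an edgeR adjusted p of 0.344. Its 95% interval ran from -1.15 to 0.24, which holds both 0 and the value of Nefh. The sign turned once the letter of the identifier entered the fit, at 0.16 (edgeR adjusted p = 0.76).

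In bulk tissue, fewer neurons of a type and less RNA per neuron cannot be told apart. In DKO against WT, markers of another region fell along with the neurofilament genes. A list of 12 hindbrain and spinal neuron genes, which includes the glycine transporter Slc6a5, the glycine receptor Glra1 and Hox genes, summed to 22.5 to 43.2 CPM in DKO, 17.5 to 33.2 CPM in Glb1KO, 15.8 to 79.2 CPM in Neu3KO and 67.7 to 106.6 CPM in WT libraries. Over the 20 libraries Slc6a5 averaged 29.7 CPM and Glra1 10.7 CPM, while the other tested genes of the list averaged 0.401 to 2.44 CPM. The sum, and its use below, therefore follows mainly Slc6a5 and Glra1. None of the 12 genes was at 0 in all 5 libraries of a genotype. Of all genes tested, 15.1% were called lower in DKO against WT and 2.21% in Glb1KO against WT. Of the 7 hindbrain genes that passed the filter, 5 were called lower in DKO than in WT brains, with Slc6a5 at -1.32 (edgeR adjusted p = 0.0148) and Glra1 at -1.18 (edgeR adjusted p = 0.00358). In Glb1KO against WT 3 were called lower. A list of motor and cholinergic neuron genes moved the same way, with 5 of 8 called lower in DKO than in WT brains, among them the vesicular acetylcholine transporter Slc18a3 at -0.81 (edgeR adjusted p = 0.00148) and the choline transporter Slc5a7 at -0.46 (edgeR adjusted p = 0.0160), and summed to 41.3 to 50.5 CPM in DKO against 53.7 to 67.8 CPM in WT libraries. Hoxb5 belongs to both lists, and of the motor list 1 gene in DKO, 2 in Glb1KO and 1 in WT were at 0 in all 5 libraries. No gene of either list was called in DKO against Glb1KO or in DKO against Neu3KO. In each of these 2 comparisons 7 of the 10 genes were called lower. The hindbrain list had median log2 fold changes of 0.12 and -0.54 there, and 15.7% and 25.1% of all genes tested were called. With the identifier letter as a term no gene of either list was called in DKO against WT. Among the libraries with identifier E alone, 4 hindbrain genes and 2 motor genes were called lower in DKO than in WT. In that fit 1117 of 20091 genes tested were called lower. Within Neu3KO the hindbrain sum was 78.6, 29.3, 15.8, 79.2 and 29.5 CPM in replicates 1 to 5. Replicate 3, with the lowest sum, was lowest in Nefl, Nefm, Nefh and Ina, and also in Prph, Mapt, Tubb3 and Stmn2. Replicates 2 and 5, with similar sums, held 297.9 and 354.0 CPM of Nefm and 162.4 and 201.5 CPM of Nefh. Replicate 1, with a higher sum, held 367.8 CPM of Nefm and 217.2 CPM of Nefh.

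**Figure D2:**
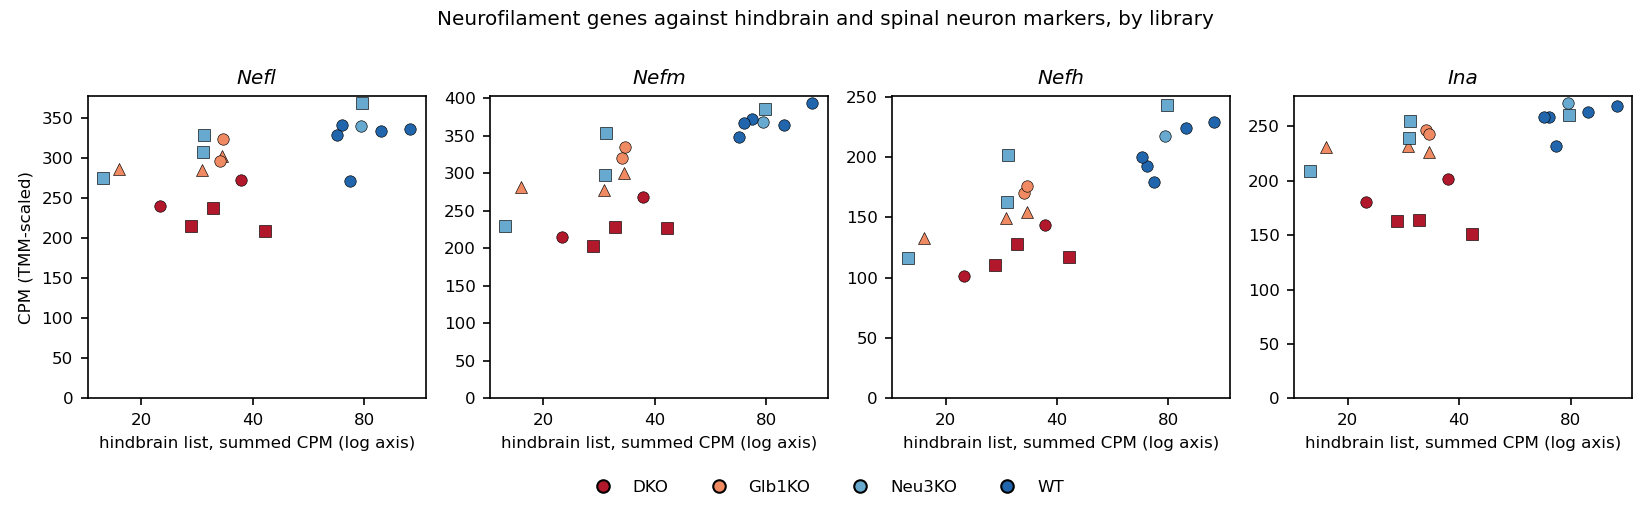
Each panel plots the CPM of Nefl, Nefm, Nefh or Ina in a library against the summed CPM of the hindbrain and spinal neuron list on a log axis, with 1 point for each of the 20 libraries, coloured by genotype and shaped by identifier letter (circle E, triangle L, square W). All 5 WT libraries lie at 67.7 CPM or more on the horizontal axis and all DKO and Glb1KO libraries at 43.2 CPM or less, and at similar hindbrain sums the DKO points lie under the Glb1KO points in Nefl, Nefm and Ina.

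When the level of the hindbrain list was added to the edgeR fit, a choice made after seeing the data, the DKO against WT log2 fold change of Nefl was -0.29 (adjusted p = 0.0205), of Nefm -0.36 (adjusted p = 0.00281) and of Ina -0.44 (adjusted p = 0.000252). Nefh was no longer called in that fit, at -0.27 with an edgeR adjusted p of 0.0661, while Mapt and Map2 were -0.36 and -0.20 and stayed called. The sums of DKO (at most 43.2 CPM) and WT libraries (at least 67.7 CPM) do not overlap. These DKO against WT values therefore rest on the slope within genotypes and compare no libraries at equal sums. DKO and Glb1KO libraries overlapped in their hindbrain sums, and with that term the DKO against Glb1KO log2 fold change was -0.36 for Nefl, -0.45 for Nefm, -0.44 for Nefh and -0.47 for Ina, all called lower (edgeR adjusted p from 6.77e-07 to 0.000102). Pan-neuronal genes other than the 10 also fell: 12 of 25 were called lower and none higher in DKO against WT, with a median log2 fold change of -0.15. Of all genes tested 15.1% were called lower and 14.0% higher. Scaling the libraries to those 25 genes in place of TMM put the median log2 fold change of all genes at 0.125. Of 18336 genes tested, 1191 were then called lower and 4606 higher. On that scale Nefl (-0.33), Nefm (-0.56), Nefh (-0.64), Ina (-0.45) and Mapt (-0.26) were called lower, Map2 at -0.078 was not (adjusted p = 0.184), and Uchl1 was called higher at 0.27 (adjusted p = 0.0019).

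**Figure D3:**
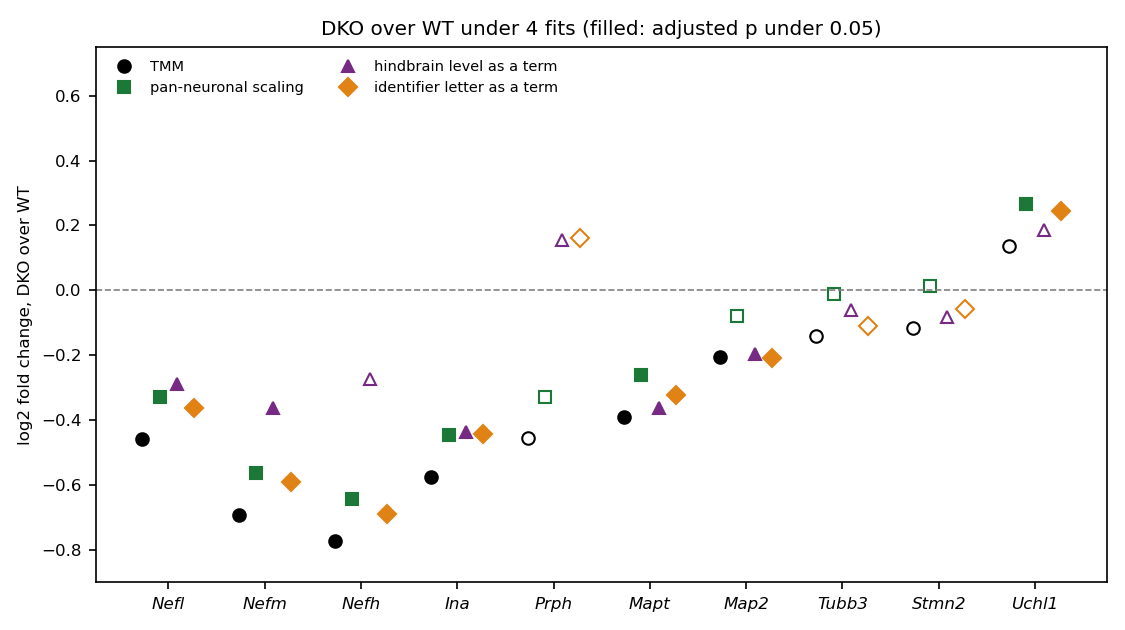
The log2 fold change of DKO over WT on the vertical axis is shown for each of the 10 genes under 4 edgeR fits: TMM scaling, scaling to 25 pan-neuronal genes, the hindbrain list level as a term, and the identifier letter as a term; filled markers have an adjusted p under 0.05. Nefl, Nefm, Ina and Mapt are filled in all 4 fits, Nefh is open with the hindbrain term, and Prph, Tubb3 and Stmn2 are open in all 4.

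Mapt (chr11:104231390-104332090, plus strand), which encodes tau, measured 440.8, 454.2, 377.3, 397.7 and 408.9 CPM in DKO libraries and 582.1, 534.9, 549.6, 529.8 and 525.3 CPM in WT libraries. The groups do not overlap, and WT replicate 1 is the highest of all. Mapt RNA fell by 23.6% in DKO, a log2 fold change of -0.39 ± 0.047 (SE) with an edgeR adjusted p of 6.95e-08. Glb1KO libraries ran from 474.5 to 504.1 CPM, between the DKO and WT libraries without touching either, and Neu3KO libraries from 511.9 to 535.8 CPM.

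Map2 (chr1:66175273-66442583, plus strand), the dendritic counterpart, measured 1141, 1160, 1115, 1083 and 1122 CPM in DKO libraries and 1303, 1325, 1267, 1280 and 1308 CPM in WT libraries. Map2 RNA fell by 13.3% in DKO, a log2 fold change of -0.21 ± 0.046 (SE), and the groups do not overlap. The edgeR adjusted p was 0.000788. Glb1KO libraries held 1225 to 1328 CPM and Neu3KO libraries 1218 to 1458 CPM, both around the WT values.

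Tubb3 (chr8:123411424-123422015, plus strand) and Stmn2 (chr3:8509360-8561606, plus strand) had smaller log2 fold changes between DKO and WT, and neither was called. Tubb3 measured 306.6, 281.6, 274.6, 274.7 and 289.2 CPM in DKO libraries and 261.0, 326.1, 332.0, 330.1 and 323.5 CPM in WT libraries, with a log2 fold change of -0.14 ± 0.056 (SE) and an edgeR adjusted p of 0.0567. WT replicate 1 lies under every DKO library and the other 4 WT libraries lie above every DKO library. Stmn2 measured 309.6, 285.8, 279.9, 263.1 and 242.3 CPM in DKO libraries and 260.8, 322.5, 313.4, 301.3 and 299.4 CPM in WT libraries, with a log2 fold change of -0.12 ± 0.061 (SE) and an edgeR adjusted p of 0.153. Without WT replicate 1 both were called lower in DKO, Tubb3 at -0.19 (edgeR adjusted p = 0.00201) and Stmn2 at -0.16 (edgeR adjusted p = 0.0423), and without DKO replicate 1 Tubb3 was called as well (-0.16, edgeR adjusted p = 0.0317). Scaled to pan-neuronal genes, Stmn2 was 0.013 (edgeR adjusted p = 0.9), with the sign turned.

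Uchl1 (chr5:66676091-66687234, plus strand) was the 1 gene of the 10 with a higher mean in DKO. It measured 448.2, 454.6, 427.7, 386.4 and 369.2 CPM in DKO libraries and 376.1, 354.7, 412.6, 399.6 and 354.3 CPM in WT libraries, and the groups overlap. The log2 fold change was 0.14 ± 0.065 (SE) with an edgeR adjusted p of 0.113, and its 95% interval ran from 0.0054 to 0.27. It was called higher without DKO replicate 5, with the identifier letter as a term (0.24, edgeR adjusted p = 0.0105) and among the libraries with identifier E alone (0.26, edgeR adjusted p = 0.0094).

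**Figure D4:**
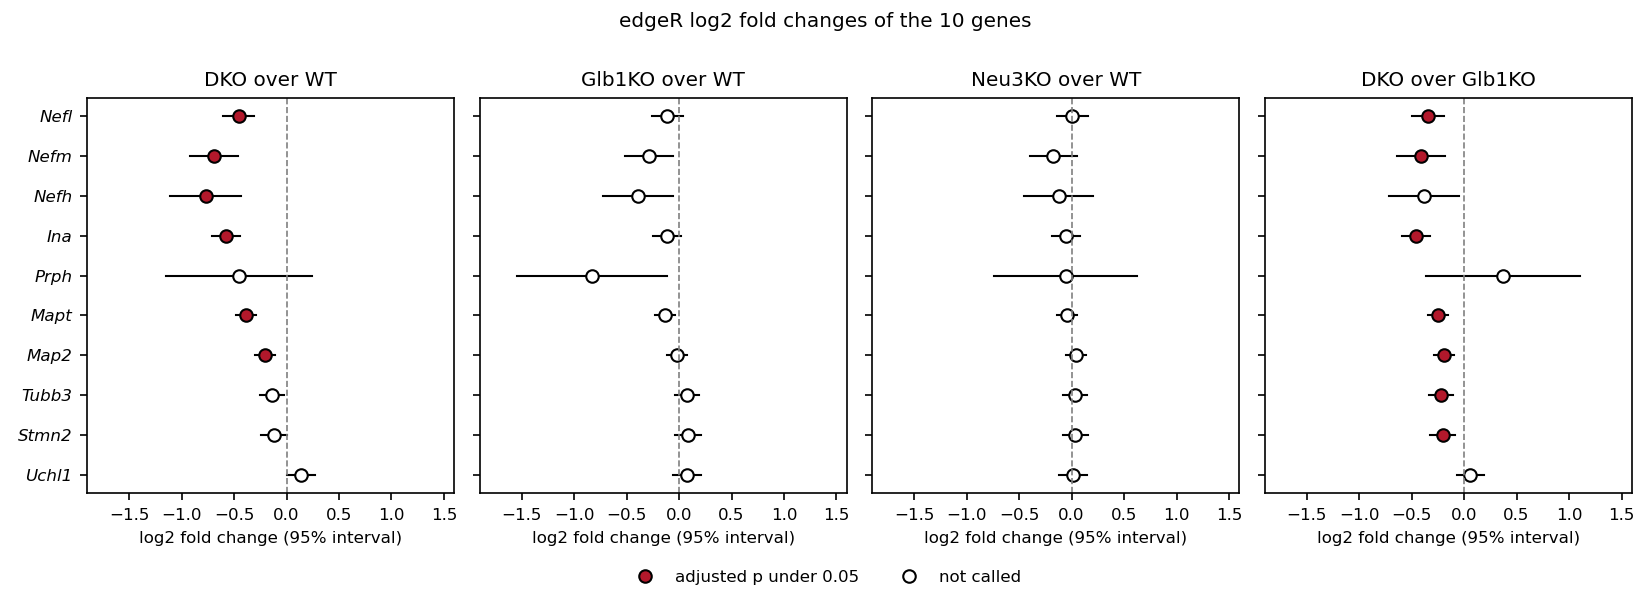
Points give the edgeR log2 fold change of each gene and lines its 95% interval, for DKO over WT, Glb1KO over WT, Neu3KO over WT and DKO over Glb1KO; filled points have an adjusted p under 0.05. In DKO over WT, 6 genes are filled, in each of Glb1KO over WT and Neu3KO over WT none is, and in DKO over Glb1KO 7 are.

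Loss of Glb1 alone gave smaller log2 fold changes against WT than loss of both genes did in all of the 10 but Prph, and none of the 10 was called. In Glb1KO against WT, edgeR called 3.96% of all genes tested, 2.21% as lower and 1.75% as higher. Mapt (-0.14, adjusted p = 0.105), Nefm (-0.28, adjusted p = 0.18), Nefh (-0.39, adjusted p = 0.217) and Prph (-0.83, adjusted p = 0.222) were the 4 genes of the 10 with an unadjusted p under 0.05. In those 4 genes every Glb1KO library lay under every WT library, a separation that 2.96% of all genes tested showed in that direction, against 2.6% in the other, where none of the 10 lay. The median of the 10 genes was -0.12 and that of all genes 0.0021. Nefl (-0.11), Ina (-0.12) and Map2 (-0.017) were lower on average, and Tubb3 (0.080), Stmn2 (0.089) and Uchl1 (0.077) higher, with edgeR adjusted p from 0.378 to 0.911. Fitted on the Glb1KO and WT libraries alone, edgeR called Nefm, Nefh and Prph lower, with adjusted p of 0.00134, 0.00555 and 0.00675. That fit called 446 of 17326 genes tested lower and 328 higher. With the hindbrain list as a term in the fit of all 20 libraries, Nefm and Nefh had positive log2 fold changes of 0.083 and 0.17 (edgeR adjusted p = 0.909 and 0.784). Glb1KO and WT libraries do not overlap in the sum of that list, so the fit with that term compares none at equal sums. No DESeq2 call was made among the 10 in this comparison.

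Loss of Neu3 alone gave no call among the 10 genes with edgeR or DESeq2, and none of them had an unadjusted p under 0.05. edgeR called 0.0% of all genes tested in Neu3KO against WT and DESeq2 called 2 genes, with 1105 genes at an unadjusted p under 0.05. In none of the 10 were the libraries of both groups apart, where 0.66% of all genes tested were apart with Neu3KO lower and 0.524% with Neu3KO higher. The log2 fold changes ran from -0.17 for Nefm to 0.045 for Map2. The intervals still allow changes of some size: for Nefm from -0.40 to 0.054 and for Nefh from -0.45 to 0.21, while for Mapt the interval was -0.14 to 0.051. Neu3KO replicate 3 was the lowest of its group in Nefl, Nefm, Nefh, Ina, Prph, Mapt, Tubb3 and Stmn2.

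Between the genotypes that both lack Glb1, DKO brains had less RNA of 7 of the 10 genes than Glb1KO brains, where 15.7% of all genes tested were called, 7.29% as lower and 8.41% as higher. The log2 fold changes were -0.35 for Nefl, -0.41 for Nefm, -0.45 for Ina, -0.25 for Mapt, -0.19 for Map2, -0.22 for Tubb3 and -0.21 for Stmn2, with edgeR adjusted p from 4.36e-06 for Ina to 0.0161 for Stmn2. In 6 of the 7, all but Stmn2, no DKO library reached the lowest Glb1KO library, as in 5.25% of all genes tested; none lay wholly above, as 6.78% did. Without DKO replicate 5 or Glb1KO replicate 3 Stmn2 was not called (edgeR adjusted p = 0.0729 and 0.0752). Nefh differed by -0.38 ± 0.16 (SE) with an edgeR adjusted p of 0.121, Prph by 0.37 (adjusted p = 0.547) and Uchl1 by 0.060 (adjusted p = 0.603). Only Tubb3 and Ina stayed called with the identifier letter as a term, and only Nefm and Ina among the libraries with identifier E, where 2 DKO and 2 Glb1KO libraries remain. The letter term left log2 fold changes of -0.31 for Nefl, -0.42 for Nefm and -0.19 for Map2, and the E libraries one of -0.23 for Tubb3, none of them called. Among those E libraries Stmn2 had a log2 fold change of 0.0066 (edgeR adjusted p = 0.986). Of all genes, 460 were called lower and 743 higher of 18336 tested with the letter term. Among the E libraries 287 were called lower and 614 higher of 20091 tested. Pan-neuronal genes fell in this comparison too, with 18 of 25 called lower and none higher, and after scaling to them Nefl and Ina were called lower, Uchl1 higher and no other gene of the 10. Among all 18336 genes tested, 331 were called lower and 4992 higher on that scale.

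Against Neu3KO brains, which share the loss of Neu3, DKO brains again had less of 7 genes: Nefl (-0.47), Nefm (-0.52), Nefh (-0.65), Ina (-0.52), Mapt (-0.34), Map2 (-0.25) and Tubb3 (-0.18), with edgeR adjusted p from 1.86e-07 for Ina to 0.019 for Tubb3. Of all genes tested 25.1% were called, 12.8% as lower and 12.3% as higher. No DKO library reached the lowest Neu3KO library in Nefl, Ina, Mapt and Map2, as in 7.2% of all genes tested, and none of the 10 lay wholly above, as 8.43% did. Tubb3 was not called without DKO replicate 3, DKO replicate 4 or Neu3KO replicate 2 (edgeR adjusted p from 0.0504 to 0.0664). Stmn2 at -0.15 (edgeR adjusted p = 0.0601), Prph at -0.40 (adjusted p = 0.444) and Uchl1 at 0.12 (adjusted p = 0.172) were not called. Scaled to the pan-neuronal genes, Tubb3 (-0.00094, edgeR adjusted p = 0.991) and Map2 (-0.075, edgeR adjusted p = 0.19) were not called and Uchl1 was called higher (0.30, edgeR adjusted p = 0.000585). The same scaling called 734 of 18336 genes tested lower and 5637 higher. In Nefm and Nefh the Neu3KO replicate 3 library lay inside the DKO range. These comparisons share the DKO libraries with those above and are not separate evidence.

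The interaction term compares the difference of DKO against Glb1KO with that of Neu3KO against WT. It was negative and called in 4 of the 10 genes, Nefl (-0.36, adjusted p = 0.0349), Ina (-0.40, adjusted p = 0.0047), Map2 (-0.23, adjusted p = 0.0228) and Tubb3 (-0.26, adjusted p = 0.0444), where edgeR called 6.84% of all genes tested, 2.88% as lower and 3.96% as higher. For Nefm (-0.23, adjusted p = 0.467) and Nefh (-0.26, adjusted p = 0.611) the interaction was not called. With the hindbrain list added to the fit both were called, at -0.51 (edgeR adjusted p = 0.00159) and -0.67 (edgeR adjusted p = 0.000592), and Map2 was not (adjusted p = 0.0612). That fit was chosen after seeing the data. WT libraries share no range of hindbrain sums with DKO or Glb1KO libraries, so its interaction values rest on the slope within genotypes. None of the 4 calls held when the libraries were scaled to the pan-neuronal genes, where the term was -0.14 for Nefl, -0.19 for Ina, -0.020 for Map2 and -0.042 for Tubb3, and Uchl1 was called higher at 0.26 (edgeR adjusted p = 0.0432). With that scaling the term was called lower in 110 and higher in 3602 of 18336 genes tested. Leaving out each library in turn gave between 1 and 6 calls among the 10; the count was 1 without Glb1KO replicate 5 or Neu3KO replicate 4, and 6 without DKO replicate 1 or Neu3KO replicate 3. Ina kept its call in all 20 of those fits, Map2 in 18, Nefl in 11 and Tubb3 in 8.

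Ratios of counts within a library compare the genes with each other and need no scaling between libraries. Nefh stood at 0.512 ± 0.0537 counts per count of Nefl in DKO, 0.523 ± 0.0408 in Glb1KO, 0.572 ± 0.0981 in Neu3KO and 0.637 ± 0.0483 in WT libraries (SD, n = 5 each). Every DKO library lay under every WT library in this ratio. Nefl per Tubb3 was 0.823 ± 0.0678 in DKO, 0.899 ± 0.0252 in Glb1KO, 1.01 ± 0.091 in Neu3KO and 1.03 ± 0.0207 in WT libraries, with no overlap between DKO or Glb1KO and WT. WT replicate 1, low in both genes, does not stand out in that ratio. Uchl1 per Tubb3 was 1.46 ± 0.132 in DKO, 1.21 ± 0.125 in Glb1KO, 1.19 ± 0.0797 in Neu3KO and 1.22 ± 0.143 in WT libraries. In two-sided exact permutation tests of 5 against 5 libraries, Nefh per Nefl and Nefl per Tubb3 reached p = 0.00794 in DKO against WT, the smallest that 5 against 5 can give. After adjustment over 9 ratios and 5 comparisons the smallest adjusted p of the 45 exact tests was 0.0595, so no ratio passed the threshold. Stmn2 per Tubb3 was 0.968 ± 0.0767 in DKO and 0.954 ± 0.0382 in WT libraries, and Map2 per Tubb3 was 3.94 ± 0.156 in DKO and 4.16 ± 0.478 in WT libraries, both with overlapping ranges.

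The rest of the axonal cytoskeleton is given through lists of genes. Beside them, 15.1% of all genes tested were called lower and 14.0% higher in DKO against WT with TMM. Scaled to the pan-neuronal genes, 1191 of 18336 genes were called lower and 4606 higher. Of 20 axonal transport motor genes, 15 were called lower and none higher in DKO against WT, with a median log2 fold change of -0.20. They included the kinesin heavy chains Kif5a (-1.34, edgeR adjusted p = 1.55e-13), Kif5c (-0.52, adjusted p = 4.22e-10) and Kif5b (-0.63, adjusted p = 8.79e-11). Kif5a, the neuronal kinesin known to carry neurofilaments along axons, also differed between Glb1KO and WT (-0.54, edgeR adjusted p = 1.51e-05) and between DKO and Glb1KO (-0.80, adjusted p = 8.62e-09), and its DKO against WT value was larger in size than that of any of the 10 genes. Scaled to the pan-neuronal genes, 7 motor genes were called lower and 2 higher.

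Of 13 spectrin, ankyrin and membrane skeleton genes, 11 were called lower in DKO against WT and none higher, with a median of -0.24. Ank3, the ankyrin of the axon initial segment and nodes of Ranvier, stood at -0.53 (edgeR adjusted p = 3.86e-09) and the spectrin Sptan1 at -0.20 (adjusted p = 0.00403). Of 18 other microtubule-associated and stathmin genes, 10 were called lower and 1 higher, with Map1a, an abundant axonal and dendritic protein, at -0.35 (edgeR adjusted p = 5.89e-07) and Map6, which stabilises microtubules against cold, at -0.36 (adjusted p = 8.25e-06). Scaled to the pan-neuronal genes, these counts were 7 of 13 lower for the spectrin list, and 5 lower and 3 higher of 18 for the microtubule-associated list. Among identifier E libraries alone 5 of each list were called lower, where 1117 of 20091 genes tested were called lower.

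Of 13 tubulin genes other than Tubb3, 2 were called lower and 1 higher in DKO against WT, where 15.1% of all genes tested were called lower and 14.0% higher, and the median was -0.073. The ones called lower were Tubb4a (-0.45, edgeR adjusted p = 6.88e-08) and Tubb4b (-0.19, adjusted p = 0.00986), and Tubg2 was higher (0.22, adjusted p = 0.0164). Tubb4a is abundant in oligodendrocytes as well as neurons, and myelin genes moved in the same samples: 18 of 19 were called lower in DKO against WT and 18 of 19 in Glb1KO against WT. In Glb1KO against WT 2.21% of all genes tested were called lower. Tuba4a, known from amyotrophic lateral sclerosis, had -0.046 (edgeR adjusted p = 0.633). Without WT replicate 1 Tubg2 was not called, and 2 tubulin genes were lower and none higher. Tubb4b was not called with pan-neuronal scaling, with the letter or hindbrain term, or among identifier E libraries, while Tubb4a was. The list had 1 lower and 3 higher on the pan-neuronal scale, where Tubb5 was among the higher ones, and 1 lower and 2 higher among identifier E libraries.

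Of 12 growth cone and collapsin response genes, 7 were called lower and none higher, including Dpysl2 (-0.23, edgeR adjusted p = 0.000591) and the adhesion molecule L1cam (-0.36, adjusted p = 0.000235), with 1 lower and 1 higher after scaling to the pan-neuronal genes and none called among identifier E libraries alone. Of 20 tau kinase and phosphatase genes, 8 were lower and 1 higher, against 4 lower and 2 higher on the pan-neuronal scale. The Cdk5 activator Cdk5r2 stood at -0.55 (edgeR adjusted p = 1.21e-06) and the tau tubulin kinases Ttbk1 and Ttbk2 at -0.36 and -0.35, while the MAP kinase Mapk3 was higher at 0.34 (adjusted p = 1.37e-06). Of 15 ubiquitin hydrolase and proteostasis genes, 2 were lower and 1, Uchl5, was higher (0.28, edgeR adjusted p = 0.011), against none lower and 5 higher on the pan-neuronal scale. Of 16 tested axon injury response genes, 5 were higher and 5 lower (6 and 1 on the pan-neuronal scale), with Klf6 at 0.40 (edgeR adjusted p = 3.39e-05) and Vip at 0.56 (adjusted p = 2.39e-06) among the higher ones and Csrp1 at -0.29 (adjusted p = 0.000221) among the lower ones. Beside these lists, 15.1% of all genes tested were called lower and 14.0% higher with TMM. The pan-neuronal scale gave 1191 lower and 4606 higher of 18336 genes.

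**Figure D5:**
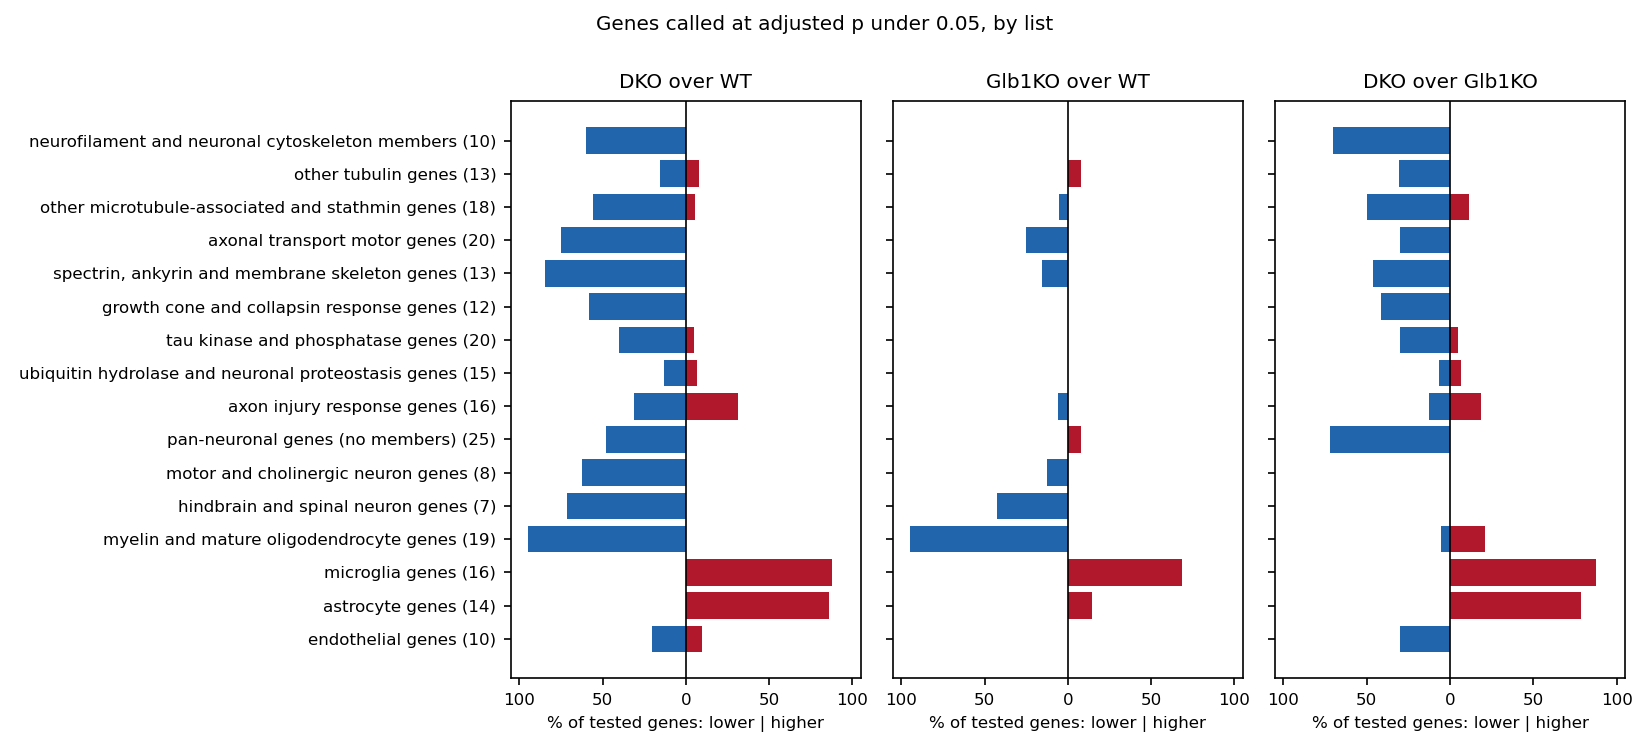
Bars give the percent of tested genes of each list called lower (left of 0) or higher (right of 0) at an adjusted p under 0.05 in edgeR, for DKO over WT, Glb1KO over WT and DKO over Glb1KO, with the number tested in brackets. In DKO over WT the cytoskeletal, motor and spectrin lists lean to the left and the microglia and astrocyte lists to the right, and in Glb1KO over WT only the myelin list has most of its genes on the left.

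Glial genes changed in the same libraries. In DKO against WT 14.0% of all genes tested were called higher and 15.1% lower. Of 16 microglia genes, 14 were called higher in DKO than in WT, and their sum was 1197 to 1495 CPM in DKO against 305.6 to 387.6 CPM in WT libraries. Of 14 astrocyte genes, 12 were called higher, with a sum of 12110 to 13560 CPM in DKO against 6491 to 7095 CPM in WT libraries, among them Gfap at 4.36 (edgeR adjusted p = 6.58e-14). The myelin list summed to 3926 to 5164 CPM in DKO, 3876 to 4413 CPM in Glb1KO, 6301 to 7057 CPM in Neu3KO and 6237 to 7055 CPM in WT libraries, so the DKO and Glb1KO libraries overlapped in this sum and both lay under WT. Of 10 endothelial genes, 1 was higher and 2 were lower, near the shares of all genes tested. The part of these shifts in the neurofilament results was not tested.

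The profile of the neurofilament triplet over the 20 libraries, as the mean log2 CPM of Nefl, Nefm and Nefh less the WT mean, was -0.64 in DKO, -0.26 in Glb1KO and -0.12 in Neu3KO libraries. Among 10557 genes with a mean of at least 10 CPM, the nearest by root mean square difference outside the triplet were Usp31 (0.125), Ina (0.129), R3hdm2 (0.139), Vamp1 (0.142) and Luzp1 (0.143). The triplet's own genes, which make up the profile, stood at 0.0685 for Nefm, 0.123 for Nefh and 0.159 for Nefl. Vamp1, a synaptic vesicle protein, stood at -0.49 in DKO, -0.23 in Glb1KO and -0.091 in Neu3KO relative to WT, and Ina at -0.58, -0.12 and -0.055. With the triplet counted, Mapt ranked 256th in that order, Map2 1820th, Tubb3 3297th, Stmn2 3974th and Uchl1 7854th. These distances describe the same 20 libraries and carry no test.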

How the data were processed

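Counts per gene were deposited by the authors for 20 brain libraries, 5 of each genotype; per the labels' protocols, polyadenylated RNA of 1 hemisphere was sequenced. The submitters' processing notes list GRCm38 and mm10 as builds and, as tools, featureCounts 1.5.0-p3, HISAT2 2.0.5, fastp and DESeq2 1.20.0; no strand setting is given in the sources used here. FPKM values were deposited by the authors in the same table set, normalized by them for gene length and depth, and were used only for the order of levels. Signal values in their comparison table are counts that the authors divided by size factors, and are not printed here. Fold changes (log2) and p-values of DKO against WT come from the authors' deposited table where so named.

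From the deposited counts, edgeR 4.0.16 (R 4.3.3) was run on all 20 libraries with TMM scaling, filterByExpr, robust quasi-likelihood fits with a mean per genotype, and Benjamini-Hochberg adjustment over 18336 genes. Scripts were tested on simulated counts. Tests assume separate animals, as the identifiers name. Ratios used counts plus 0.5 and exact two-sided permutation tests. Alternatives were RLE, upper-quartile and pan-neuronal scaling, filters, DESeq2 1.42.0, a fit on only the groups compared, a term for the replicate number, a term for the identifier letter, identifier E alone, and leaving out each library. The term for the hindbrain list was chosen after seeing the data. Genes named beyond the 10 came from each list's 3 smallest adjusted p in DKO against WT, 2 smallest in each of Glb1KO against WT and DKO against Glb1KO, and its highest mean CPM, plus the 5 genes nearest to the triplet profile. The 10 genes and all lists were chosen with earlier results of these data known. Library totals of 15162311 to 25145806 counts limit precision mostly for Prph and the hindbrain genes.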

Additional observations from a re-analysis of the deposited data

Results flagged for a closer look

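In 4 of 40 sets of 5 libraries, 1 library lay far from the other 4; chance flags about 1 in 20 such sets. WT replicate 1 was lowest in Nefl at 272.0 CPM, with the nearest WT library at 329.0 CPM, in Ina at 232.0 CPM (nearest 258.0 CPM) and in Tubb3 at 261.0 CPM (nearest 323.0 CPM). The same library was lowest of its group in Nefh and Stmn2, summed lowest among WT libraries for the other tubulin, myelin, microglia and astrocyte lists, and was the highest WT library in Mapt and in the spectrin list. The other was Glb1KO replicate 2 in Mapt at 474.0 CPM, with the nearest Glb1KO library at 496.0 CPM.

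The interaction term, which tests whether DKO against Glb1KO differs from Neu3KO against WT, was called with TMM scaling in Nefl (-0.36 on the log2 scale), Ina (-0.40), Map2 (-0.23) and Tubb3 (-0.26). In each of the 4 genes DKO libraries averaged less than Glb1KO libraries, while the log2 fold change of Neu3KO against WT was between -0.051 and 0.045. The share of all genes tested with a called term was 6.84%. With pan-neuronal scaling none of the 4 was called, and with a library left out between 1 and 6 of the 10 genes were.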

How the results depend on the processing

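Direction and call of the 10 log2 fold changes were recomputed under 11 other settings and with each library of the compared groups left out. Of 1350 such values 63 lost a call, 35 gained one and 46 changed sign; 31 of the 46 were in Neu3KO against WT, and the 1 called value that reversed was Stmn2 in DKO against Glb1KO, 0.0066 with identifier E alone (fewer samples). For the 45 ratios, 12 of 630 values gained a call and 44 changed sign, none called. Among genes named from the lists, Eno2 (0.10) and Slc1a2 (0.12) reversed in DKO against WT with pan-neuronal scaling, and Slc6a5 (0.11), Hoxb5 (0.050) and Hoxc4 (0.061) with the hindbrain list, which holds all 3, as a term. Counts of called genes among the 10 that moved by over 1.5 times were as follows. Glb1KO against WT gave 1 with pan-neuronal scaling, 1 with no filter and 3 with the compared groups alone, against 0. DKO against Glb1KO gave 3 with pan-neuronal scaling, 2 with the letter term and 2 with E alone, against 7. DKO against Neu3KO gave 3 with E alone, against 7. The interaction gave 1 with pan-neuronal scaling, 2 with the replicate block and 0 with E alone, against 4, and 1 to 6 with a library left out. Over all genes, DKO against WT gave 3363 (letter term), 2583 (E alone) and 2673 (hindbrain term), against 5323, and Glb1KO against WT gave 315, 323 and 174, against 726. Neu3KO against WT gave 1 (pan-neuronal), 26 (no filter), 2 (DESeq2), 3 (groups alone) and 1 (E alone), against 0, and 0 to 1 with a library left out. DKO against Glb1KO gave 5323 (pan-neuronal), 1203 (letter term) and 901 (E alone), against 2879; DKO against Neu3KO gave 882 (E alone), against 4606; the interaction gave 3712 (pan-neuronal), 183 (E alone) and 802 (hindbrain term), against 1255. With E alone the Neu3KO arm is 1 library, assumed to vary like the other groups, so those counts for DKO against Neu3KO, Neu3KO against WT and the interaction say little. The causes were not tested. With pan-neuronal scaling the median of all genes was 0.125 in DKO against WT, 0.163 in DKO against Glb1KO and 0.169 in DKO against Neu3KO, where TMM gave -0.0032, -0.0046 and -0.0047, and the share of calls that were lower in DKO against WT was 20.5%, against 51.9% with TMM. The replicate numbers did not pair the libraries: over 30 same-number pairs the mean correlation of deviations was -0.0024 and the highest 0.065. The block changed no other count of the 10 genes. For Prph and the hindbrain list, low counts limit what can be seen.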
